A study of Mus musculus with 6 samples.

Results

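Chemokine ligands are small secreted proteins that draw leukocytes along concentration gradients by binding receptors on the target cell. Within hours of receptor engagement, CD4+ T cells transcribe several of them, by which they attract other T cells, dendritic cells and myeloid cells. The 8 ligands described here are Ccl1, Ccl3, Ccl4, Ccl5, Ccl20, Ccl22, Xcl1 and Cxcl10, out of 19977 genes in the table. All 8 were found in it. They were listed by name and not by a cut on their values. Like all gene lists here, they were chosen with earlier results of these data known. Counts of list members set beside shares of all genes are therefore description only. Wild-type C57BL/6 mice gave the CD4+ T cells, which came from spleen and lymph nodes and were sorted by flow cytometry and then cultured for 6 hours with antibodies to CD3 and CD28. The 3 young libraries came from mice aged 6 to 8 weeks (coded as 1 month in the sample titles) and the 3 old libraries from mice aged 11 months. All 6 libraries were stimulated, so no resting level is known, and nothing states whether a library is 1 animal or a pool. The spread behind each p-value is that among these libraries and may be technical.

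Each library held between 16932551 and 18708205 expected counts (reads assigned to transcripts by a model). The sorted identity was checked with 8 T-cell genes, whose summed level was 3440 to 3830 CPM (counts scaled to library size with TMM factors) in young and 3510 to 4160 in old libraries, with Cd4 between 320 and 639 CPM throughout. Young replicate 1 stood apart: its gene counts differed from those of the other young libraries with a chi-square per degree of freedom of 158 and 188. This was 28.9 between those others and 21.6 to 26.4 among old libraries, over genes with enough counts in each pair. Values of each ligand without it are therefore also given. Of 10509 genes with a mean of at least 1 FPKM (fragments scaled to transcript length and library size), 78 were called higher in old libraries (0.742%) and 14 lower (0.133%), by edgeR at an adjusted p under 0.05.

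The summed level of the 8 ligands was higher in every old library than in any young one. It was 270, 416 and 313 FPKM in the young and 749, 736 and 1154 FPKM in the old libraries. The 8 ligands held 91.7% to 92.5% of the FPKM of all chemokine ligands in the table in young libraries and 93.8% to 95.6% in old ones. Ccl1 and Ccl3 rose (2 of 8, against 0.742% of all genes tested), and 0 of 8 fell. For 5 of the 8, which were Ccl1, Ccl3, Ccl4, Ccl20 and Xcl1, every old library lay above every young one, as was so for 9.9% of all genes tested. The median log2 difference of the 8 was 1.41, against -0.03 over all genes tested. Ccl20 entered the test only through its level in old libraries, so its place among the 5 and in this median carries no weight. In a bulk sample, more cells that make a ligand and more transcript per cell cannot be told apart.

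**Figure D1:**
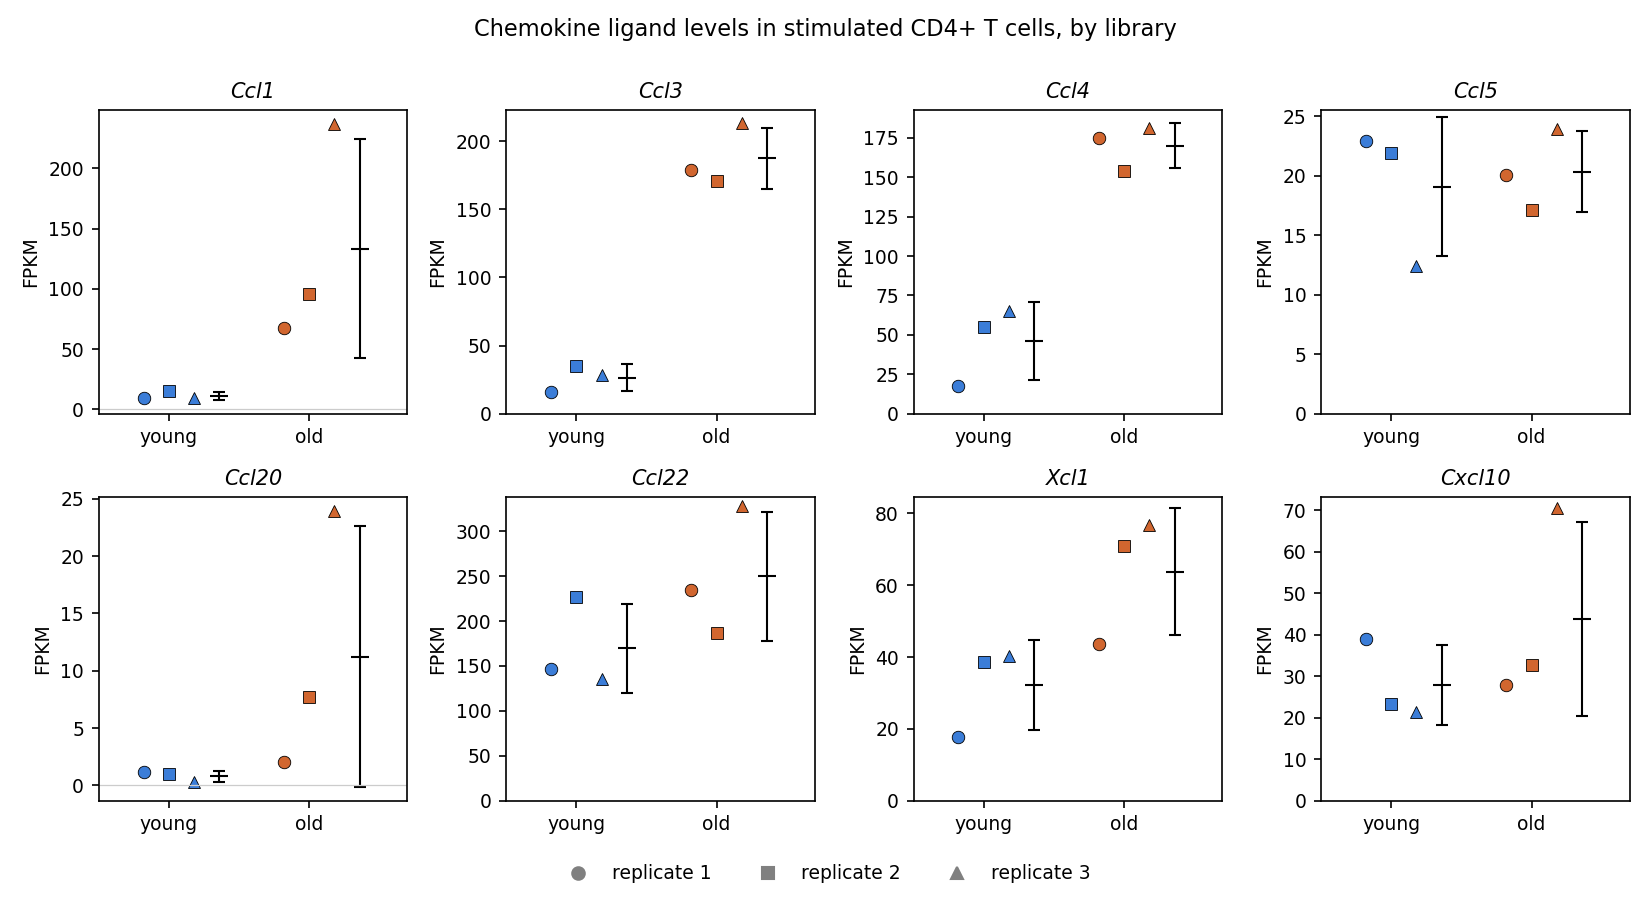
FPKM (vertical axes, with a range of its own in each panel) of the 8 ligands in young (blue) and old (orange) libraries, with symbols for replicates 1 to 3 and a bar for the mean ± SD of 3 libraries. Old libraries lie above all young ones for Ccl1, Ccl3, Ccl4, Ccl20 and Xcl1, and old replicate 3 is the highest old library in all 8 panels.

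Ccl3 and Ccl4 are the inflammatory macrophage proteins. They recruit T cells, monocytes and natural killer cells. Ccl3 (gene 20302, chromosome 11, 83647843 to 83649378 in GRCm38) stood at 15.5, 34.9 and 28.4 FPKM in young replicates 1, 2 and 3 and at 178, 171 and 213 FPKM in the old ones. The lowest old library was 4.81 times the highest young one on the CPM scale. From 26.3 ± 9.87 to 187 ± 22.4 FPKM (SD, n = 3 each), its log2 difference was 2.82 ± 0.32 (SE), a 7.04-fold rise with a 95% interval of 4.19 to 11.8 (Benjamini-Hochberg adjusted p = 0.0207, quasi-likelihood test of edgeR). The difference stayed between 2.54 and 3.06 whichever library was left out, but the call was kept only without young replicate 1 (adjusted p = 0.00191) and lost without any of the others (adjusted p from 0.0605 to 0.137).

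Ccl4 (gene 20303, chromosome 11, 83648624 to 83664683) stood at 17.9, 54.8 and 65.1 FPKM in young and 175, 154 and 181 FPKM in old libraries. The old libraries were close together, and young replicate 1 was the low one of a widely spread young group. Its means were 45.9 ± 24.8 and 170 ± 14.3 FPKM (SD, n = 3 each). The log2 difference of 1.87 ± 0.44 (SE) did not pass (adjusted p = 0.132 in edgeR), and its 95% interval ran from 1.78-fold to 7.47-fold. Without young replicate 1 it was 1.48 and passed (adjusted p = 0.00341), so that 3 of the 8 ligands were then called higher, as were 5.86% of all genes tested. DESeq2 with all libraries called Ccl1, Ccl3, Ccl4 and Ccl20 higher, 4 of the 8, with 3.56% of all genes called higher. Ccl20 had entered the test only through its level in old libraries, so its call carries no weight in that count. Likewise with all libraries, limma on log2(FPKM + 1) called Ccl1 and Ccl3, with 0.79% of all genes.

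By FPKM, the order of Ccl3 and Ccl4 differed between young and old libraries. The ratio of Ccl4 to Ccl3 FPKM was 1.15, 1.57 and 2.29 in young libraries and 0.98, 0.901 and 0.852 in old ones. On this scale Ccl4 was the higher in every young library and Ccl3 in every old library. By CPM, which is not scaled to transcript length, Ccl3 was slightly the higher in young replicate 1 too (11.7 against 11.2 CPM). The log2 ratio was 0.68 ± 0.50 in young and -0.14 ± 0.10 in old libraries (SD, n = 3 each), a difference with an exact two-sided permutation p = 0.1, the smallest that 3 libraries against 3 allow.

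The gene table lists Ccl3 and Ccl4 as overlapping, because a predicted second Ccl4 transcript, XM_011248832.1, starts inside the Ccl3 span. That model held between 0 and 45.5 expected counts per library, or 0% to 4.18% of the Ccl4 total. Counts of Ccl3 were not whole in 5 of 6 libraries, yet the summed counts of Ccl3 and Ccl4 were whole in all 6 (within 0.02), at 396, 1156 and 1141 in young and 4518, 4210 and 5228 in old libraries. Giving all of its counts to Ccl3, an alternative added after seeing the data, left the log2 difference of Ccl3 at 2.81 (adjusted p = 0.0202 in edgeR) and that of Ccl4 at 1.86 (adjusted p = 0.144 in edgeR). The main transcripts, Ccl3-201 and Ccl4-201 in GENCODE M21, had 68.4% identical bases over their aligned coding sequences but no shared run longer than 9 bases. As 1 summed gene they differed by 2.33 ± 0.39 (SE, log2), just within the threshold (adjusted p = 0.0495 in edgeR).

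Ccl5, which attracts T cells and monocytes, is abundant in memory and cytotoxic T cells. Ccl5 (gene 20304, chromosome 11, 83525778 to 83530518) stood at 22.95, 21.9 and 12.4 FPKM in young and 20.1, 17.1 and 23.9 FPKM in old libraries. The groups overlapped, and young replicate 3 was the lowest of all 6. Its log2 difference was 0.09 ± 0.28 (SE, adjusted p = 0.962 in edgeR), with a 95% interval from 0.673-fold to 1.69-fold, so a change as large as that of Ccl3 lay outside the interval. The sign turned to -0.13 without young replicate 3 and to -0.06 without old replicate 3, and the value was 0.22 without young replicate 1. Mean Ccl5 was 19.1 ± 5.82 FPKM in young and 20.3 ± 3.42 FPKM in old libraries (SD, n = 3 each), and its part of the summed ligand FPKM went from 5.91% ± 2.34 to 2.36% ± 0.304 (SD).

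Ccl1, made by activated T cells and mast cells, binds Ccr8, a receptor of Th2 and regulatory T cells. Ccl1 (gene 20290, chromosome 11, 82176666 to 82179812) stood at 9.04, 15 and 9.39 FPKM in young and 67.6, 95.7 and 237 FPKM in old libraries. Each old library was above all young ones, and old replicate 3 was far above the other old ones. With means of 11.1 ± 3.34 and 133 ± 90.9 FPKM (SD, n = 3 each), the log2 difference was 3.58 ± 0.53 (SE), a 12.0-fold rise with a 95% interval of 5.07 to 28.2 (adjusted p = 0.0368 in edgeR). Leaving out old replicate 3 lowered it to 2.84 (adjusted p = 0.0508 in edgeR). The call was kept without young replicate 1 (3.43, adjusted p = 0.0142 in edgeR) and lost without each of the other 5 libraries, with adjusted p up to 0.177.

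Ccl20 binds Ccr6 on Th17 cells, B cells and dendritic cells, and is itself made by Th17 cells. Ccl20 (gene 20297, chromosome 1, 83116766 to 83119167) was the scarcest of the 8, at 1.14, 0.96 and 0.28 FPKM in young and 2.05, 7.72 and 23.9 FPKM in old libraries. The old libraries spanned 12.05-fold from lowest to highest on the CPM scale, the widest range of any of the 8 in either group. Behind these levels were 15, 14 and 4 counts in young and 29, 110 and 349 in old libraries. Its log2 difference of 3.83 ± 0.95 (SE) was the largest of the 8 but did not pass (adjusted p = 0.149 in edgeR), and it was 2.59 without old replicate 3 and 4.14 without young replicate 1 (adjusted p = 0.0554 in edgeR). The young mean of 0.793 ± 0.454 FPKM (SD, n = 3) was below the expression filter of 1, so Ccl20 was tested only because of its level in old libraries.

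The Ccl20 counts were divided between transcript forms that differ by 3 bases at the point where exon 2 begins, at 83117796 or at 83117799 of chromosome 1. Exon 1 ends at 83116902 in both. The forms are 794 and 772 bases long, so they also differ within exon 1, outside the bases shown. They are shown because the table gives them separately, 5′ to 3′ on the plus strand from GENCODE M21 (GRCm38), with the last 15 bases of exon 1 first and the 3 bases that only the longer form has in capitals.
NM_016960.2: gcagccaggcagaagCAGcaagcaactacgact
NM_001159738.1: gcagccaggcagaagcaagcaactacgact
The form with the extra codon was listed at 0 in all 3 young libraries, or 0 of 33 counts together, which allows a share of up to 9.09% (counting error only). It held 100%, 24.1% and 56.2% of Ccl20 counts in old replicates 1, 2 and 3. The old libraries thus differed widely among themselves. These are expected counts divided between the forms by a model, and the error of that division was not measured. The 9.09% does not cover that error, so it is no firm bound to set the old shares against. No difference in splicing between the groups was tested. The summed Ccl20 count, which does not depend on this division, was whole in every library.

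Ccl22, the macrophage-derived chemokine, draws Th2 and regulatory T cells that carry Ccr4. Ccl22 (gene 20299, chromosome 8, 94745684 to 94751388) was the most abundant ligand, at 147, 227 and 136 FPKM in young and 235, 187 and 328 FPKM in old libraries. The groups overlapped, since young replicate 2 lay above old replicate 2. The log2 difference was 0.55 ± 0.29 (SE, adjusted p = 0.597 in edgeR), with a 95% interval from 0.919-fold to 2.34-fold, and it was 0.28 without old replicate 3 and 0.44 without young replicate 1. Ccl22 made up 50.7% ± 6.39 of the summed ligand FPKM in young and 28.4% ± 2.96 in old libraries (SD, n = 3 each), while Ccl1 went from 3.32% ± 0.303 to 14.2% ± 5.86 and Ccl3 from 7.74% ± 1.75 to 21.8% ± 2.95. For these shares of Ccl22, Ccl1 and Ccl3 the young and old libraries did not overlap.

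**Figure D2:**
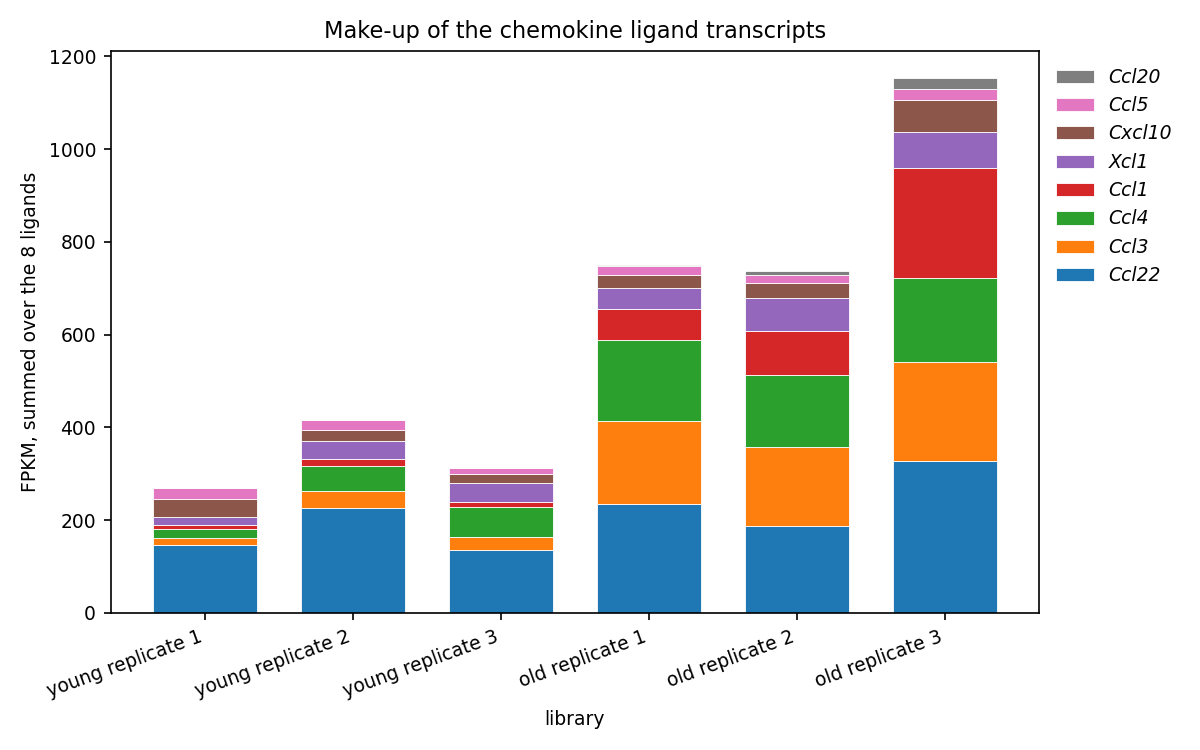
Summed FPKM (vertical axis) of the 8 ligands in each of the 6 libraries, stacked by ligand. Bars of the old libraries reach 736 to 1154 FPKM against 270 to 416 in young ones, with Ccl22 the largest part of each young bar and wider parts for Ccl1, Ccl3 and Ccl4 in the old bars.

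Xcl1, lymphotactin, lacks part of the cysteine pattern usual in chemokines and acts on Xcr1, which is carried by cross-presenting dendritic cells. Xcl1 (gene 16963, chromosome 1, 164931644 to 164935522) stood at 17.8, 38.6 and 40.4 FPKM in young and 43.7, 71.0 and 76.7 FPKM in old libraries. The groups did not overlap, but by little: the lowest old library was 1.03 times the highest young one on the CPM scale. Its log2 difference of 0.96 ± 0.37 (SE) did not pass (adjusted p = 0.395 in edgeR), with a 95% interval from 1.07-fold to 3.55-fold. Young replicate 1 was the lowest library here, and without it the difference was 0.66.

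Cxcl10 is induced by interferons and binds Cxcr3 on Th1 and CD8 T cells. Cxcl10 (gene 15945, chromosome 5, 92346638 to 92348889) stood at 38.9, 23.4 and 21.4 FPKM in young and 27.9, 32.8 and 70.6 FPKM in old libraries. The groups overlapped, with young replicate 1 above old replicates 1 and 2. Its log2 difference was 0.66 ± 0.40 (SE, adjusted p = 0.667 in edgeR), with a 95% interval from 0.826-fold to 3.02-fold, and it came to 0.10 without old replicate 3 and to 0.95 without young replicate 1.

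**Figure D3:**
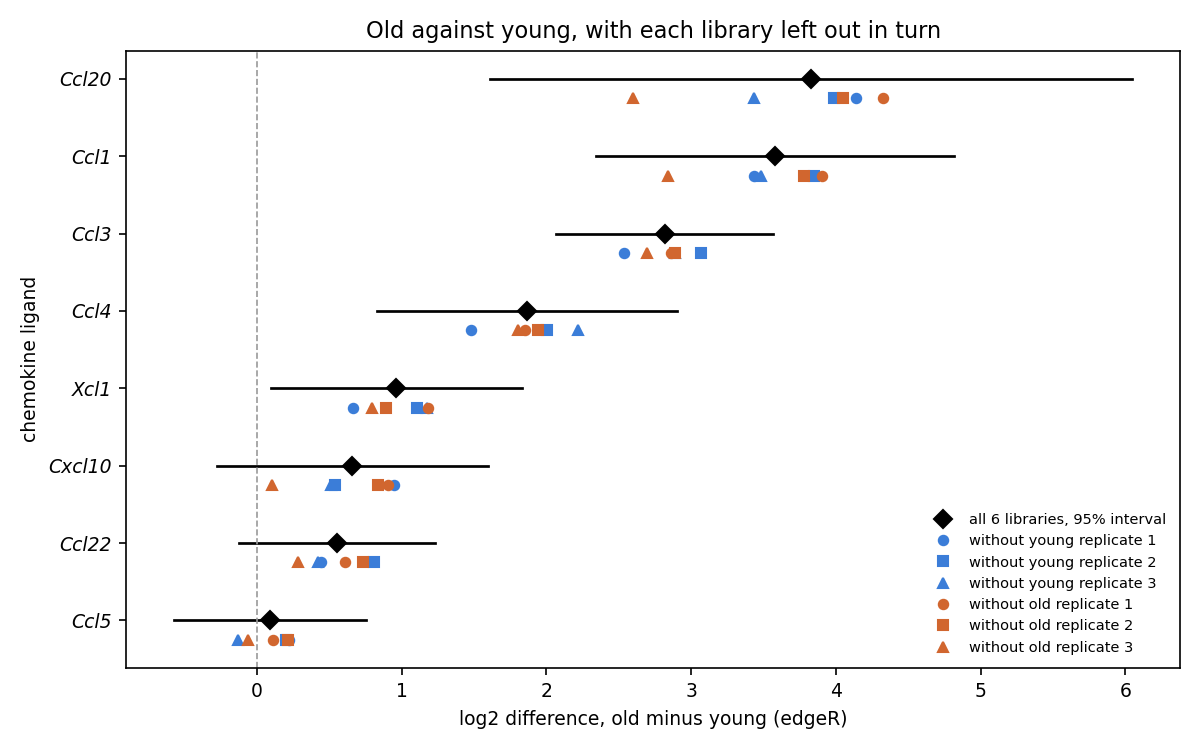
Log2 difference, old minus young, from edgeR (horizontal axis) for each ligand (vertical axis): diamonds with bars are the values and 95% intervals with all 6 libraries, and small symbols the values with 1 library left out. The intervals of Cxcl10, Ccl22 and Ccl5 cross 0, and the values of Ccl20, Ccl1 and Cxcl10 move most without old replicate 3.

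The spread of the ligands among libraries of a group was mostly above that of the median gene. Within young libraries the SD of log2 CPM lay above the median of all genes tested (0.35) for all 8, from 0.39 for Ccl22 to 1.04 for Ccl4. Yet Ccl22, Ccl1, Cxcl10 and Ccl5 were there between percentiles 56.3 and 63.7 of all genes. Only 2 ligands, Ccl4 and the scarce Ccl20, were above the 90th percentile in young libraries. Within old libraries it lay above the median of all genes tested (0.15) for 7 of 8, from 0.19 for Ccl3 to 1.75 for Ccl20, with Ccl4 below it at 0.14. Among old libraries, Ccl1, Ccl20, Ccl22, Xcl1 and Cxcl10 were above the 90th percentile of all genes tested. Old replicate 3 was the highest old library for 8 of 8 ligands. This was not particular to them: early genes of receptor stimulation such as Cd69, Tnf, Il2 and Egr1 were also highest there, though Nr4a2 was not. The share of all genes was not counted. Among young libraries the order was mixed: replicate 1 was the lowest for Ccl1, Ccl3, Ccl4 and Xcl1, but the highest for Ccl5, Ccl20 and Cxcl10.

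By level per transcript length, the order in young libraries was Ccl22, Ccl4, Xcl1, Cxcl10, Ccl3, Ccl5, Ccl1 and Ccl20. The ranges of neighbours in that order overlapped between Ccl4 and Ccl1, while Ccl22 at the top and Ccl20 at the bottom stood clear. In old libraries the order was Ccl22, Ccl3, Ccl4, Ccl1, Xcl1, Cxcl10, Ccl5 and Ccl20. All neighbours overlapped there except Cxcl10 and Ccl5. Ccl1 thus moved from the 7th to the 4th place and Ccl3 from the 5th to the 2nd.

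To set these differences beside the genes' control regions, the 250 bases before the RefSeq start of the gene were read for the 6 ligands that the promoter table holds (GRCm38.p6), and searched on both strands for the NF-kB consensus, the AP-1 site TGANTCA and the NFAT core GGAAA. These are the factors that T-cell receptor signalling activates. Shown are Ccl1 and Ccl3, which rose, and Cxcl10, whose groups overlapped, each 5′ to 3′ on the gene's own (minus) strand with matches in capitals.
Ccl1, chr11:82179813-82180062: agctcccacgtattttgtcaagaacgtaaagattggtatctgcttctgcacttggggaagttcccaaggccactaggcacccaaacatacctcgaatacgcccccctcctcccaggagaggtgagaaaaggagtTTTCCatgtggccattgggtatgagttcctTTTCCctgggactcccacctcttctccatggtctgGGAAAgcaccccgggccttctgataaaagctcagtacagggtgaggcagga
Ccl3, chr11:83649379-83649628: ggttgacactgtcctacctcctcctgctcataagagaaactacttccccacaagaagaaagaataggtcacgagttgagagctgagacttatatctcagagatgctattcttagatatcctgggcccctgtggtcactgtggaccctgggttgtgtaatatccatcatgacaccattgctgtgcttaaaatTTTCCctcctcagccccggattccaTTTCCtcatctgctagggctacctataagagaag
Cxcl10, chr5:92348890-92349139: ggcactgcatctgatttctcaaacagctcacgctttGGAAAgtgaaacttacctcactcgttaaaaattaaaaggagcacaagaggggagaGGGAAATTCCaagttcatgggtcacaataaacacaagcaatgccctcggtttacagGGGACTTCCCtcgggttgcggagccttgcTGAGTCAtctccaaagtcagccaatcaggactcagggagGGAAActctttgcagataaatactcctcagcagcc

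The NFAT core matched at 3 places for Ccl1, 2 for Ccl3, 3 for Ccl20, 1 for Xcl1, 3 for Cxcl10 and 0 for Ccl22. It occurs in 55.6% of all 32851 promoter windows, so a match is common. The NF-kB consensus matched at 2 places for Cxcl10 and 1 for Ccl20 (3.9% of all windows hold it), and the AP-1 site at 1 place for Cxcl10 (6.75% of all windows). At 1 place in Cxcl10 and 1 in Ccl20 the NFAT core lies inside an NF-kB match. Neither of these motifs was found in the Ccl1 and Ccl3 windows, which says only that those letters are not in them.

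Of the 28 other chemokine ligands in the table, 9 passed the expression filter. Of these, 0 were called in edgeR (0.742% of all genes called higher), while DESeq2 and limma each called 1 (3.56% and 0.79% of all genes called higher). The median log2 difference of the 9 was 0.47. It was positive for 7 of them (44.9% of all genes tested) and lowest for Ccl25, at -0.71 ± 0.33 (SE) with overlapping groups. The most abundant of them were Ccl17, the other Ccr4 ligand, Ccl27a, a skin chemokine, and Cxcl3, a neutrophil attractant that acts on Cxcr2. Ccl17 had a log2 difference of 0.47 ± 0.60 and Ccl27a of 0.26 ± 0.27 (SE, n = 3 per group). Cxcl3 stood at 1.22, 2.37 and 1.04 CPM in young and 5.62, 6.32 and 11.0 CPM in old libraries. Its groups did not overlap, and the log2 difference of 2.31 ± 0.44 (SE) missed the threshold in edgeR (adjusted p = 0.0764) but passed in limma (adjusted p = 0.0456) and DESeq2 (adjusted p = 0.000101), and in edgeR without young replicate 1 (adjusted p = 0.0290). Ccl6 and Cxcl2, named after their values were seen, also had groups that did not overlap, with log2 differences of 1.79 ± 0.59 and 1.66 ± 0.52 (SE). With Cxcl3 they made 3 of the 9, against 9.9% of all genes tested that were higher in old libraries without overlap.

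Receptors of the ligands were measured in the same cells, and 5 of the 8 described here passed the filter. Of these 5, 3 had groups that did not overlap and were higher in old libraries, as 9.9% of all genes tested were. None of the 5 was called in edgeR (0, against 0.742% of all genes called higher), while DESeq2 called 2 (3.56% of all genes called higher) and limma 0. Ccr8, the Ccl1 receptor, had a log2 difference of 1.08 ± 0.28 and Ccr4, the Ccl22 receptor, of 1.09 ± 0.37 (SE, n = 3 per group), neither called in edgeR. Cxcr3, the Cxcl10 receptor, stood at 18.5, 10.9 and 4.45 CPM in young and 95.1, 58.8 and 29.3 CPM in old libraries, a log2 difference of 2.44 ± 0.59 (SE, adjusted p = 0.138 in edgeR). Here old replicate 3 was the lowest old library, where it was the highest for Cxcl10. Ccr6, the Ccl20 receptor, had overlapping groups and a log2 difference of 1.75 ± 0.77, and Xcr1 of -0.17 ± 0.49 (SE). Without young replicate 1, Cxcr3 (adjusted p = 0.0182 in edgeR) and Ccr6 (adjusted p = 0.0319 in edgeR) passed.

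**Figure D4:**
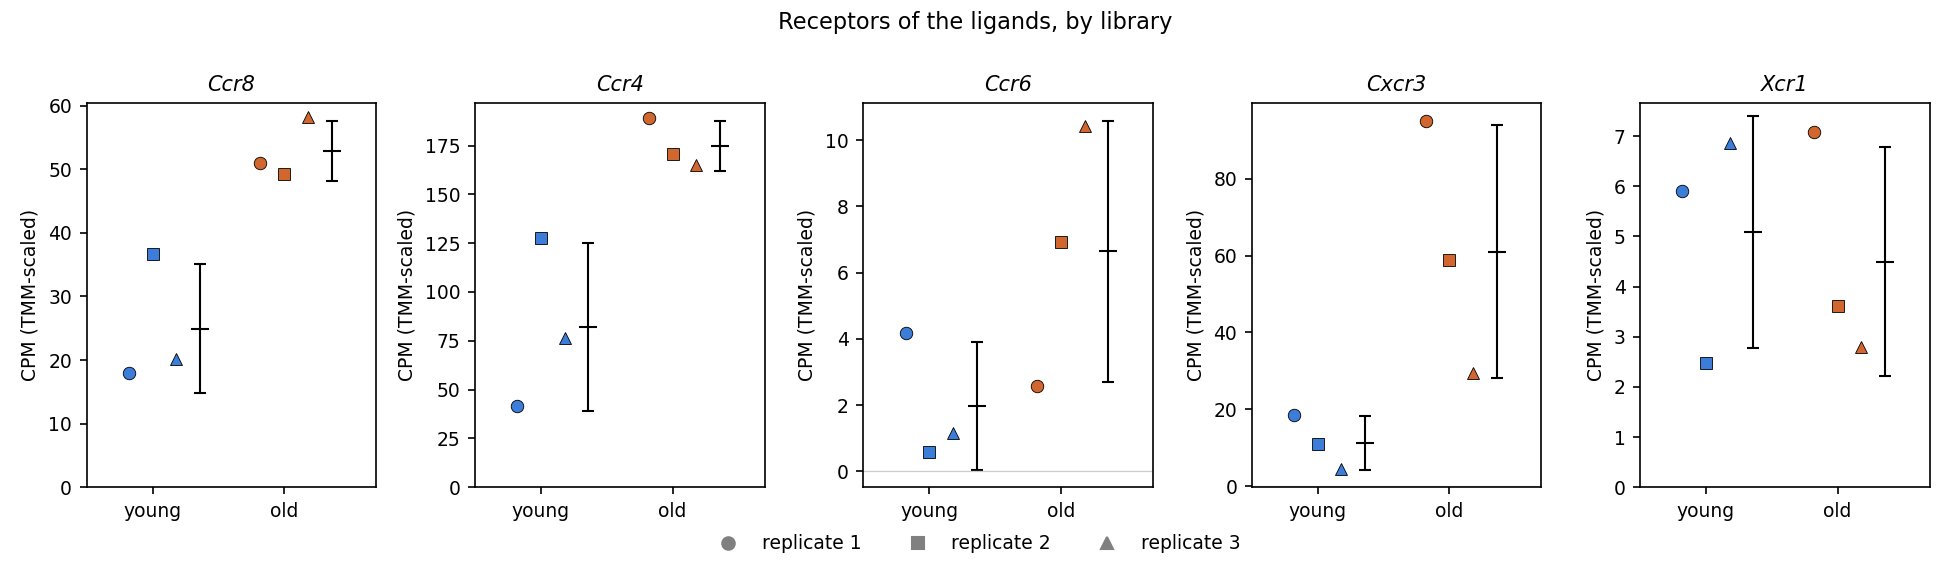
CPM (vertical axes, with a range of its own in each panel) of 5 receptors that passed the filter in young (blue) and old (orange) libraries, with symbols for replicates 1 to 3 and a bar for the mean ± SD. Old libraries lie above all young ones for Ccr8, Ccr4 and Cxcr3, and overlap with them for Ccr6 and Xcr1.

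Among 25 transcription factors that act on chemokine genes after receptor stimulation, 1 was called higher (0.742% of all genes tested) and 0 lower, with a median log2 difference of 0.45. DESeq2 called 6 (3.56% of all genes called higher). For 11 of the 25, groups did not overlap and were higher in old libraries (9.9% of all genes). The call was Batf, an AP-1 family factor of effector T cells, with a log2 difference of 1.53 ± 0.18 (SE, adjusted p = 0.025 in edgeR). It was lost without any 1 library other than young replicate 1. Fosl2, another AP-1 family factor, had 1.21 ± 0.24 and was not called (adjusted p = 0.0824 in edgeR), but passed in DESeq2 (adjusted p = 0.000429) and in edgeR without young replicate 1 (adjusted p = 0.00798). The NF-kB subunits Nfkb1, Nfkb2, Rel, Rela and Relb had log2 differences of 0.13, 0.18, 0.35, 0.45 and 0.22, with 0 called in edgeR. These subunits were named after their values were seen. Among them only Rela had groups that did not overlap, higher in old libraries.

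Of 20 early genes of receptor stimulation, all 20 had a positive log2 difference, against 44.9% of all genes tested, with a median of 0.67. None was called in edgeR (0, against 0.742% of all genes called higher). DESeq2 called 7 (3.56% of all genes called higher) and limma 0 (0.79%). Young replicate 1 was the lowest young library for 19 of the 20, as for 41.2% of all genes tested. Without it, 17 of the 20 had a positive difference (51.0% of all genes), the median was 0.43, and 6 were called higher in edgeR (5.86% of all genes). Those with the smallest p were Tnfrsf4, the costimulatory receptor OX40 (1.18 ± 0.24, SE), and Cd40lg, the ligand of CD40 (1.14 ± 0.24), which both passed in edgeR without young replicate 1 (adjusted p = 0.0119 and 0.0311). The part of these genes in the ligand differences was not tested. Among 16 measured interferon-response genes, which share inducers with Cxcl10 and include Ifng itself, the median was 0.04. Of the 16, 10 had a positive difference (44.9% of all genes), while Ifit3 had -1.44 ± 0.61 (SE) with overlapping groups. In edgeR 1 was called higher (0.742% of all genes), and DESeq2 called 2 (3.56% of all genes called higher). The edgeR call was Oas1a, an antiviral synthetase whose near-identical paralogs make read assignment uncertain (1.37 ± 0.19, SE, adjusted p = 0.0306 in edgeR). It was kept only without young replicate 1 when 1 library was left out. Ifng, the interferon that induces Cxcl10, stood at 6.19, 29.5 and 37.0 CPM in young and 63.9, 104 and 301 CPM in old libraries (2.69 ± 0.77, SE, adjusted p = 0.224 in edgeR). Like the 8 ligands and other early genes such as Cd69 and Tnf, Ifng was highest in old replicate 3.

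Other cells of spleen and lymph node also make these ligands, so their markers were summed in each library. The 12 monocyte and macrophage genes summed to 15.7 to 24.0 CPM in young and 13.4 to 18.2 CPM in old libraries, overlapping. The 9 dendritic cell genes summed to 100 to 119 CPM in young and 137 to 199 CPM in old libraries, which did not overlap. Most of that sum was Fscn1 (75.9 to 99.9 CPM in young, 109 to 163 CPM in old). Zbtb46, a transcription factor of dendritic cells, also had groups that did not overlap, at 5.79, 8.87 and 8.20 CPM in young and 14.5, 16.1 and 20.6 CPM in old libraries (log2 difference 1.16 ± 0.25, SE). Batf3 had a log2 difference of 1.26 ± 0.59, Flt3 of 0.11 ± 0.39 and Xcr1 of -0.17 ± 0.49 (SE), all with overlapping groups. Clec9a, Itgax and Siglech were at or below 1.21 CPM in all 6 libraries, and Cd209a was at 0. The 8 natural killer genes summed to 57.1 to 103 CPM in young and 43.5 to 55.4 CPM in old libraries. Within that list Eomes made up most of the level (47.6 to 99.7 CPM in young, 29.7 to 37.1 CPM in old), so the lower sum rested on it. The cytotoxic genes Prf1 (1.10 to 2.95 CPM in young, 6.07 to 9.50 CPM in old) and Gzma (0.289 to 1.39 CPM in young, 2.13 to 4.97 CPM in old) went the other way, without overlap. Klrk1 was at 0.462 to 1.07 CPM in young and 0.927 to 2.05 CPM in old libraries, and Klrb1c at 0 to 0.376 and 0.432 to 0.656 CPM. Klrd1 was highest in young replicate 1 (5.38 CPM), and Ncr1 and Klra8 were at or below 0.492 CPM throughout. Neutrophil genes summed to 31.4 to 67.9 CPM in young and 4.54 to 25.4 CPM in old libraries, without overlap. CD8 genes summed to 16.6 to 27.5 CPM in young and 11.3 to 14.6 CPM in old libraries, and B-cell genes to 16.3 to 38.7 and 17.6 to 38.0 CPM. Platelet and erythroid genes summed to 4.30 to 7.35 CPM in young and 3.29 to 3.76 CPM in old libraries, and stromal genes to 70.1 to 242 and 90.1 to 101 CPM, with the highest value in young replicate 1. The part of these cells in the ligand differences was not tested.

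Genes with the profile most like each ligand over the 6 libraries were found by the root mean square difference of centred log2 CPM among 10468 other named genes, and are given as a description. For Ccl1 they were Areg, an epidermal growth factor receptor ligand (0.387), and Casp4, an inflammatory caspase (0.406), and for Ccl20 Casp4 (0.578) and Havcr2, the inhibitory receptor TIM-3 (0.650). For Ccl3 they were Gm4841 (0.286) and again Areg (0.351), and for Ccl4 Apol10b (0.214) and Rgs16, a regulator of G protein signalling (0.282). Xcl1 was nearest to Cdh23, a cadherin (0.141), and Gfi1, a transcriptional repressor (0.151). Ccl5 was nearest to Mfsd2b (0.0855) and Parp3 (0.0992), Ccl22 to Cap2 (0.0923) and Arhgap22 (0.0980), and Cxcl10 to Fut8 (0.150) and Furin (0.174). Among the ligands themselves, Ccl1 was the gene 5th nearest to Ccl20, Ccl3 the 12th nearest to Ccl1 and Ccl4 the 14th nearest to Ccl3. These were the closest ranks, and other ligands lay far apart. Ccl20 was the 9243rd nearest to Ccl4, and the ligand nearest to Ccl5, which was Ccl22, was only the 2836th.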

How the data were processed

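The authors deposited 1 table with the expected count and the FPKM of each of 66712 transcripts in 6 libraries, per the file headers. The submitters' processing notes name Bowtie, RSEM and the GRCm38 (mm10) build, without versions. For each of 19977 genes, the expected counts of its transcripts were added up and rounded, and FPKM was summed likewise. Genes without a symbol (147) held 0.121% to 0.211% of the counts. Genes whose mean FPKM reached 1 were tested with edgeR 4.0.16 (quasi-likelihood, TMM factors) in R 4.3.3, old against young with 3 libraries each, and p-values were adjusted over all 10509 genes by the Benjamini-Hochberg method at 0.05. CPM is a count scaled to library size after TMM scaling. The script was tested on simulated data. DESeq2 1.42.0, limma 3.58.1 on log2(FPKM + 1) and on smaller pseudocounts, other filters and factors, a replicate block and leaving out each library were alternatives. Named besides the 8 ligands are other ligands that were called or, with none called, the 3 of highest FPKM, receptors that passed the filter (1 is not reported here), called genes of the factor, early and interferon lists with the 2 of smallest p in each, and the 2 genes most like each ligand. The NF-kB subunits, Ccl6, Cxcl2, Ccl25 and Ifit3 were chosen after their values were seen. The 8 ligands and all lists were chosen with earlier results of these data known. Promoters are RefSeq (GRCm38.p6), with entries for 6 of the 8 ligands. Intervals are 95% and floors of 3 counts cover counting error only. Figures were drawn with matplotlib 3.10.9.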

Additional observations from a re-analysis of the deposited data

How the results depend on the processing

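Over all genes tested, edgeR called 92, against 203 with no filter, 55 with a mean FPKM of at least 5, 501 with DESeq2, and 0 to 929 when 1 library was left out. Of the 8 ligands, 2 were called, against 4 with DESeq2 and 0 to 3 with 1 library left out: 3 without young replicate 1 and 0 without any other. RLE factors, the robust fit, no filter, the higher filter and limma at each pseudocount also called 2. Of the other ligands, 0 were called, against 1 with no filter, 1 with DESeq2, 1 with limma at each pseudocount and 0 to 2 with 1 library left out. The log2 difference of Ccl5 reversed to -0.13 without young replicate 3 and to -0.06 without old replicate 3, and ran from -0.13 to 0.22 with 1 library left out. That of Ccl3 and Ccl4 summed ran from 1.98 to 2.56 with 1 library left out, passing only without young replicate 1. The cause of these changes was not tested. Nothing states that equal replicate numbers pair the samples. Deviations of same-numbered libraries correlated at 0.223, -0.0287 and 0.182 across genes, and those of differently numbered ones from -0.33 to 0.339. With 3 libraries per group these values cannot decide whether samples were paired. With the replicate block, 2 ligands were called, Ccl1 at 3.38 and Ccl3 at 2.89, with 119 genes called in all and 2.46 for Ccl3 and Ccl4 summed. Depth limits Ccl20 most, with 4 to 15 counts per young library.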

Other observations

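Some chemokine genes below the expression filter of 1 FPKM also had higher means in old libraries, and were chosen after their values were seen. Others below it had lower means there, such as Cxcl1, at 0.267 CPM in young and 0.127 CPM in old libraries. Ccr1, a receptor of Ccl3, stood at 0.521, 0.537 and 0.289 CPM in young and 0.491, 1.89 and 8.85 CPM in old libraries, overlapping and highest in old replicate 3. Ccl24, an eosinophil attractant, stood at 0.232, 0.484 and 0.173 CPM in young and 2.89, 0.864 and 1.59 CPM in old libraries, which did not overlap. Ccl6, which passed the filter, reached 10.4 CPM in old replicate 1 against 2.90 to 3.24 CPM in the other old libraries.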
